A study of Mus musculus with 31 samples.

Results

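The genes described here encode the FMRP family and the proteins that control translation through the cap-binding protein eIF4E. CYFIP1, the protein overexpressed in these mice, is a partner of both. The set was given as a list of 10 genes, *Fmr1*, *Fxr1*, *Fxr2*, *Eif4e*, *Eif4e2*, *Eif4ebp1*, *Eif4ebp2*, *Eif4g1*, *Eif4a1* and *Eif4a2*, out of 48709 genes in the count tables. All 10 were found by their symbols, and all 10 were among the 17428 genes with enough reads to be tested. RNA came from the basolateral amygdala (BLA), a region that forms fear memories. It was sequenced by QuantSeq, which reads the 3′ end of each mRNA, so that CPM, a gene's reads scaled to a common library size, can be compared between genes without division by length. The left and right BLA of a mouse were pooled, and each of the 31 mice is 1 replicate.

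The 15 CYFIP OE mice carried a bacterial artificial chromosome (BAC) with the human gene for CYFIP1, injected into C57BL/6N zygotes. The 16 Control mice carried no transgene. All were C57BL/6N mice with no other allele or treatment named. Line 1 held 8 Control and 7 CYFIP OE mice, and line 3 held 8 Control and 8 CYFIP OE mice. Each line descends from 1 founder, so in CYFIP OE mice effects of line and of where the BAC inserted cannot be told apart. The Control mice were 8 females and 8 males aged 58 to 61 days. The CYFIP OE mice were 8 females and 7 males aged 58 to 77 days, and the 4 mice aged 77 days were all CYFIP OE mice of line 1. Only 2 of the 15 mice of line 1 had names that share a prefix with a mouse of the other genotype. Genotype within line 1 thus cannot be fully told apart from age and from the groups that the names give. The count tables list mouse genes. The mouse gene *Cyfip1* had 33.5 ± 4.48 CPM in Control mice (SD, n = 16) and 33.0 ± 3.66 CPM in CYFIP OE mice (SD, n = 15), so its row does not check the genotype labels. How many reads of the human transcript were counted in that row was not tested.

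FMRP, the product of *Fmr1*, is an RNA-binding protein that holds many synaptic mRNAs back from translation, and its loss causes Fragile X syndrome. Translation of most mRNAs starts when eIF4E binds the cap at the 5′ end of the mRNA and eIF4G joins it to the helicase eIF4A in the complex eIF4F. The 4E-BPs and CYFIP1 bind eIF4E on the surface that eIF4G uses, and CYFIP1 bound to FMRP brings this block to the mRNAs that FMRP carries.

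The shared way of binding can be read in the coding sequences. The 4E-BPs and eIF4G1 each hold a short motif, a tyrosine followed at a fixed distance by a leucine and a hydrophobic residue, which lies on eIF4E. The stretches below show the codons of that motif in 3 of the 10 genes, because the competition for eIF4E rests on them. They are written 5′ to 3′ on the coding strand, from the GENCODE transcripts of GRCm38, and the capitals mark the tyrosine codon and the leucine and hydrophobic codons.
Eif4ebp1: atcTATgaccggaaatttCTGATGgag
Eif4ebp2: attTATgaccgaaagtttCTGTTGgac
Eif4g1: cgtTATgacagagaattcCTGCTGggc
The *Eif4ebp1* stretch lies in exon 2 (chr8:27273334-27273360, plus strand), with its tyrosine at codon 53 of 117. The *Eif4ebp2* stretch lies in exon 2 (chr10:61435066-61435092, minus strand), with its tyrosine at codon 54 of 120. The *Eif4g1* stretch lies in exon 12 (chr16:20681218-20681244, plus strand), with its tyrosine at codon 616 of 1600. The same spacing was also met at codon 1526 of *Eif4g1* and at codon 1054 of *Cyfip1*, where it is a match of the pattern and not a known site.

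Total counts per mouse ran from 5286925 to 8685521, with a median of 7387798. Connectivity, given as a Z-score, measures how closely the profile of 1 mouse follows those of the rest. CYFIP OE replicate 1, a male of line 3, had a Z-score of -4.74, and the next lowest was -1.18. The paper states that samples with a connectivity Z-score below -2 were removed. On the Z-score given here, that rule would leave this mouse out. The mouse was kept in the main fits, and results without it are given as alternatives. The punches varied in what they held. The summed level of 5 neuronal markers was 1470 to 3150 CPM, and that of 3 markers of BLA principal neurons 2.66 to 255 CPM, so that the defining markers of the labelled region were near 0 in the lowest mice, and *Rspo2* ran from 0 to 16.1 CPM. The 5 striatal markers that passed the filter summed to 169 to 3850 CPM, 6 oligodendrocyte markers to 1030 to 8410 CPM and 2 choroid plexus markers to 16.2 to 8260 CPM. In bulk tissue, fewer cells of a type and less RNA per cell cannot be told apart.

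The helicase gene *Eif4a2* had the highest level of the set and the 4E-BP genes the lowest. Over the 31 mice the mean level was 297 CPM for *Eif4a2*, 178 for *Eif4g1*, 126 for *Eif4a1*, 82.8 for *Eif4e*, 47.3 for *Fxr2*, 40.5 for *Fxr1*, 26.2 for *Fmr1*, 19.2 for *Eif4e2*, 6.01 for *Eif4ebp1* and 5.41 for *Eif4ebp2*. Each gene was compared with the next one down within mice on the log2 CPM scale, by sign-flip permutation with Benjamini-Hochberg adjustment over the 9 pairs. In 8 of the 9 pairs the mean difference was apart from 0, with adjusted p of 0.000371 or less (permutation). The smallest p that the permutations can give is 1e-05. *Eif4ebp1* and *Eif4ebp2* were the exception: *Eif4ebp1* was higher in 17 of 31 mice (adjusted p = 0.42, permutation). The order was taken from the means of the same mice, and the test concerns the mean difference, not the order in each mouse. *Fxr2* exceeded *Fxr1* by 0.23 ± 0.25, in 25 of 31 mice, and *Fmr1* exceeded *Eif4e2* by 0.51 ± 0.67, in 28 of 31 (log2, SD). Among the FMRP family, *Fmr1* made up 23.2 ± 4.73% of the summed counts, *Fxr1* 35.4 ± 3.87% and *Fxr2* 41.5 ± 4.36% (SD, n = 31).

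**Figure D1:**
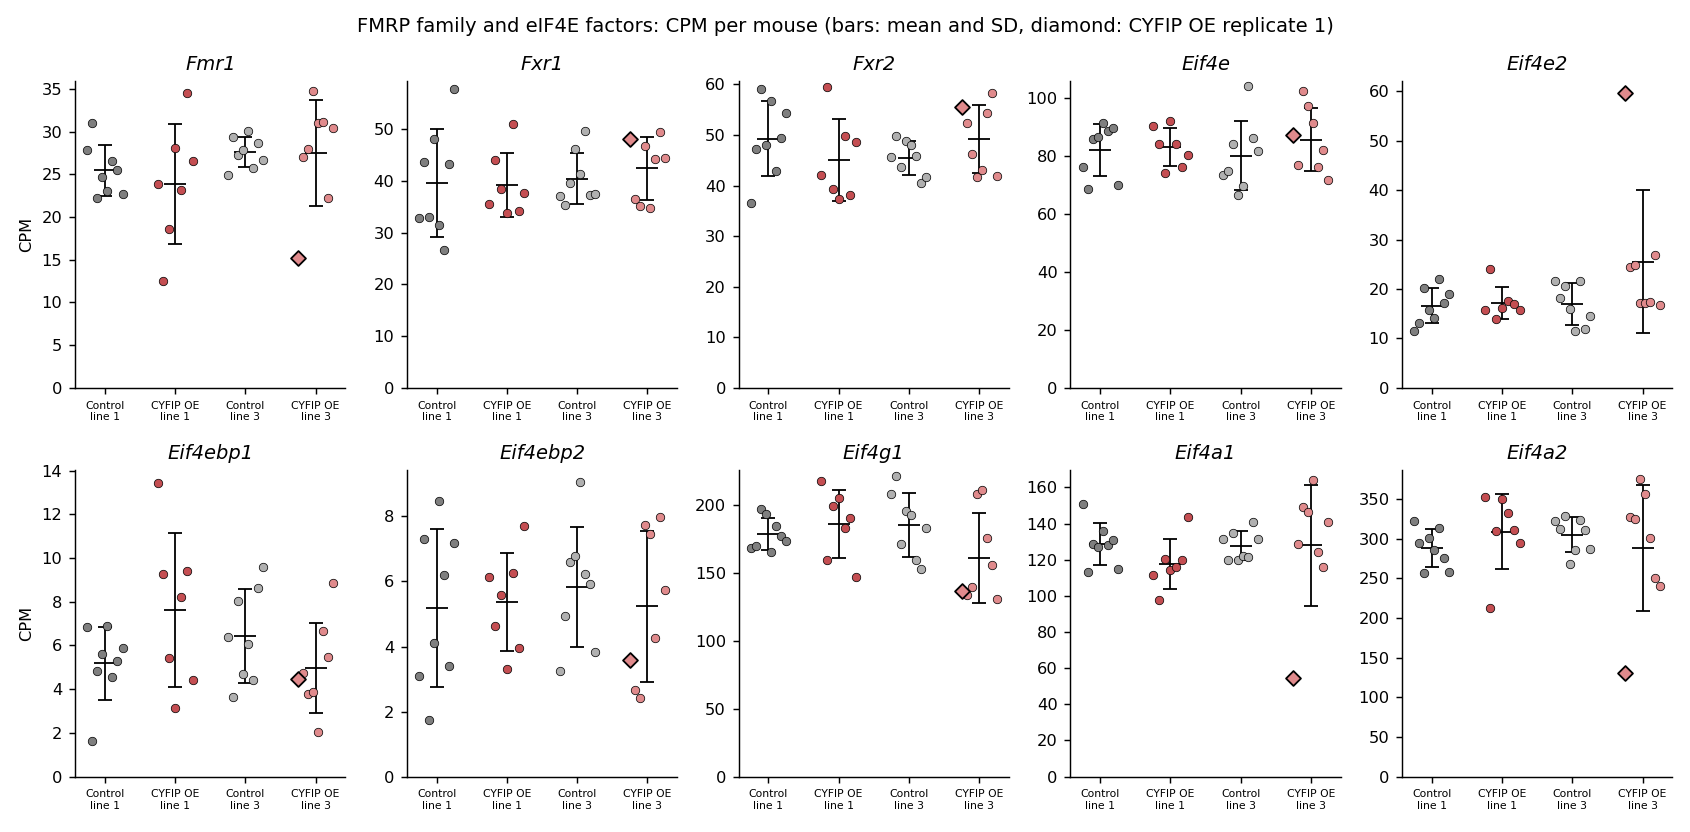
Level of each of the 10 genes (vertical axis, CPM) in every mouse, by genotype and line, with the mean and SD of each group as a bar and CYFIP OE replicate 1 as a diamond. The groups overlap in every panel, and the diamond stands above all other mice in Eif4e2 at 59.7 CPM and below all others in Eif4a1 at 54.5 CPM and Eif4a2 at 130 CPM.

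The genotype comparison asks whether the genes that work with CYFIP1 change their mRNA level when CYFIP1 is overexpressed. By edgeR's quasi-likelihood test with sex, line and genotype as terms, none of the 10 genes had an adjusted p under 0.05, where 0% of all tested genes did. The same count was 0 of 10 by DESeq2. Here and below, the share of all tested genes is given for the main edgeR fits alone, and not for DESeq2 or other alternatives. At an unadjusted p under 0.05 the count was 1 of 10, *Eif4e2*, beside 4.3% of all tested genes. At an unadjusted p under 0.005 none of the 10 passed for genotype, line, sex or the difference between lines, beside 0.293%, 0.189%, 0.436% and 0.843% of all tested genes. The fitted log2 differences between CYFIP OE and Control mice ran from -0.08 to 0.33, with 4 genes above 0 and 6 below, and 48.7% of all tested genes were above 0. The 95% intervals give the differences that the values leave possible, and for the FMRP family, *Eif4e*, *Eif4g1*, *Eif4a1* and *Eif4a2* they lie between -0.27 and 0.22. That of *Eif4e2* reaches from 0 to 0.65. For the 4E-BP genes, which had 13 to 103 reads per mouse for *Eif4ebp1* and 14 to 79 for *Eif4ebp2*, they are wider, from -0.49 to 0.52. Within the lines, too, none of the 10 genes and 0% of all tested genes had an adjusted p under 0.05. At an unadjusted p under 0.05 the count was 0 of 10 in line 1, beside 3.96% of all tested genes, and 1 of 10 in line 3, again *Eif4e2*, beside 7.93%.

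**Figure D2:**
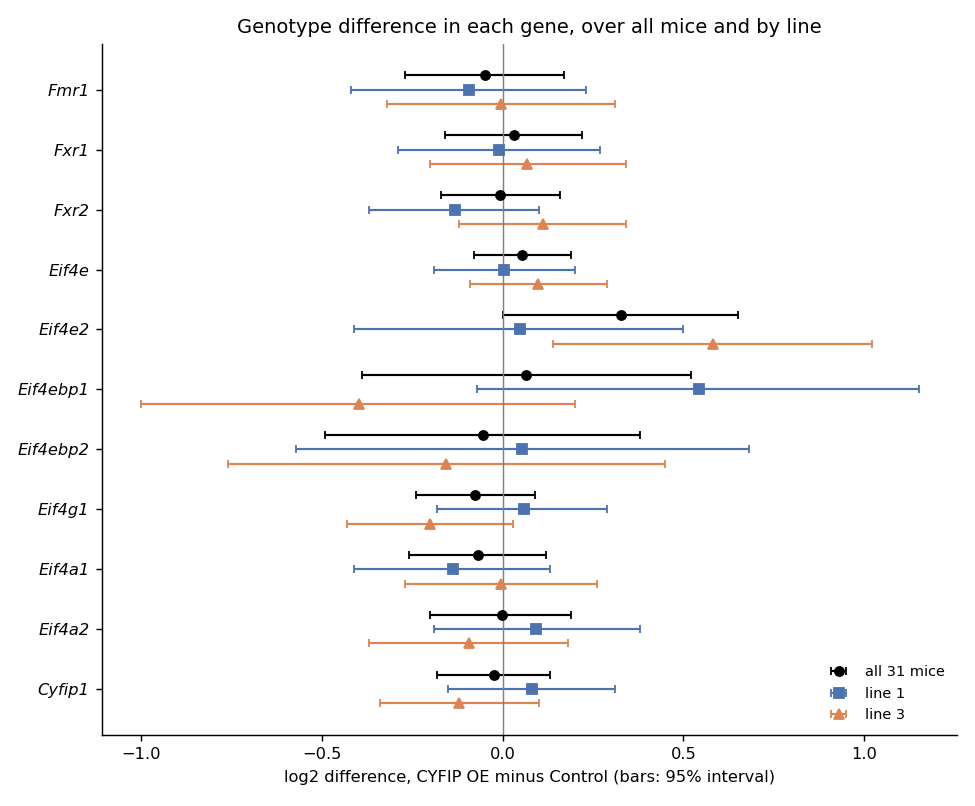
Fitted log2 difference between CYFIP OE and Control mice (horizontal axis) for each gene and for the mouse gene Cyfip1, with 95% intervals, over all 31 mice and within each line. The intervals over all mice include 0 or reach it. The estimates of Eif4ebp1 lie on opposite sides of 0, at 0.54 in line 1 and -0.40 in line 3, with intervals that include 0 (-0.07 to 1.15 and -1.00 to 0.20). The interval of Eif4e2 in line 3 lies above 0, from 0.14 to 1.02 (adjusted p = 0.514, edgeR).

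*Fmr1* (chromosome X, 68678541 to 68717963, plus strand) ranged from 22.2 to 31 CPM in Control mice, with a median of 26.6, and from 12.5 to 34.8 CPM in CYFIP OE mice, with a median of 27.0. The CYFIP OE mice thus lay on both sides of the Control range, with 3 above its top and 3 below its bottom. The log2 difference was -0.05 with a standard error of 0.11 (adjusted p = 0.999, edgeR). The 3 low mice were CYFIP OE replicate 4 at 12.5 CPM, replicate 1 at 15.2 CPM and replicate 5 at 18.6 CPM. Replicates 4 and 5 are mice of line 1 aged 77 days, and replicate 1 is the mouse of low connectivity. Without the 4 mice aged 77 days the difference was 0.06, and without the mouse of low connectivity it was 0.00.

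The paralogs of FMRP, FXR1P and FXR2P, bind RNA with the same kinds of domains and associate with FMRP. *Fxr1* (chromosome 3, 34019943 to 34070322, plus strand) had a median of 38.5 CPM in Control mice, between 26.7 and 57.8, and of 38.4 CPM in CYFIP OE mice, between 33.8 and 51.0. *Fxr2* (chromosome 11, 69632990 to 69653297, plus strand) had a median of 47.6 CPM in Control mice, between 36.5 and 59.0, and of 46.2 CPM in CYFIP OE mice, between 37.3 and 59.5. The genotypes covered nearly the same range in *Fxr2*, while in *Fxr1* the Control mice spread wider, with 4 below and 1 above every CYFIP OE mouse. The log2 differences were 0.03 ± 0.10 for *Fxr1* and -0.01 ± 0.08 for *Fxr2* (± SE, adjusted p = 0.999 for both, edgeR).

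*Eif4e* (chromosome 3, 138526179 to 138559696, plus strand), the cap-binding protein itself, had a median of 83.0 CPM in Control mice, between 66.5 and 104, and of 84.2 CPM in CYFIP OE mice, between 71.8 and 103. The ranges overlapped over nearly their whole length. The genotypes differed by 0.05 on the log2 scale, with a 95% interval from -0.08 to 0.19.

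*Eif4e2* (chromosome 1, 87213914 to 87240488, plus strand) encodes 4EHP, which binds the cap but not eIF4G and so represses the mRNAs it holds. Its level was 11.5 to 22.1 CPM in Control mice, with a median of 16.6, and 13.9 to 59.7 CPM in CYFIP OE mice, with a median of 17.1. In 5 CYFIP OE mice it exceeded every Control mouse, and 1 of them, CYFIP OE replicate 1, had over 2 times the CPM of any other mouse. This ratio depends on the scaling of libraries. Replicate 1 had 333 *Eif4e2* reads of 7497729 total counts, and replicate 14, at 26.9 CPM, had 172 of 6455106, a ratio under 2 by total counts alone. The log2 difference was 0.33 ± 0.16 (SE, unadjusted p = 0.049, adjusted p = 0.999, edgeR). The estimate was not alike in the lines, and 1 mouse moved it. In line 3 the Control mice had 11.5 to 21.6 CPM and the CYFIP OE mice 16.8 to 59.7 CPM, a log2 difference of 0.58 ± 0.22 (SE, unadjusted p = 0.0108, adjusted p = 0.514, edgeR). In line 1 it was 0.05 ± 0.22, and the difference between the lines was 0.53 ± 0.31 (adjusted p = 0.693, edgeR). This difference was 0.24 (unadjusted p = 0.309, edgeR) without the mouse of low connectivity, CYFIP OE replicate 1, and 0.03 with 5 surrogate variables as further terms. Without that mouse the CYFIP OE mice of line 3 had a median of 17.4 and a mean of 20.7 CPM, beside 17.0 CPM for both in their Control mice, and the difference over both lines was 0.16 (unadjusted p = 0.192, edgeR). In the 18 mice whose names share a prefix with mice of both genotypes, 16 of them from line 3, it was 0.64 with the name group as a term (unadjusted p = 0.00816, adjusted p = 0.999, edgeR). These 18 mice include the mouse of low connectivity, and without it the difference was 0.38 (unadjusted p = 0.0786, edgeR).

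**Figure D3:**
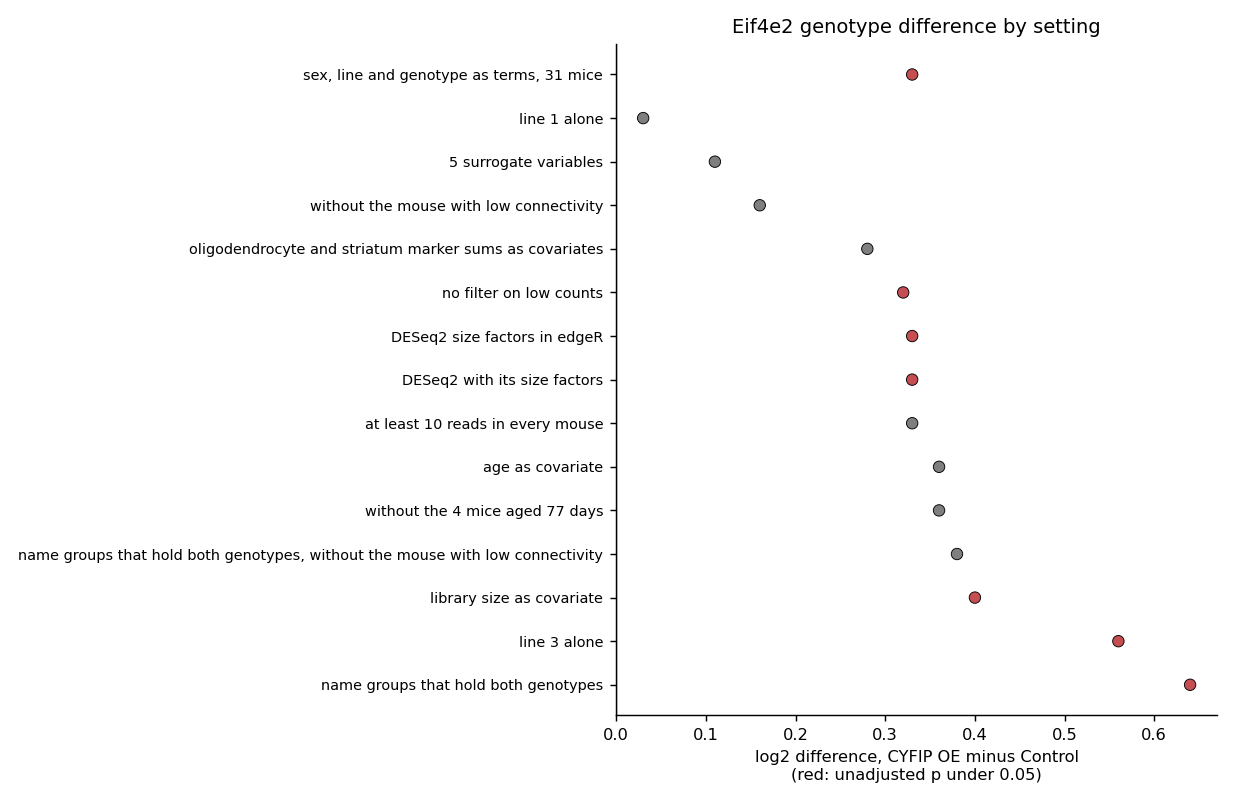
Log2 difference of Eif4e2 between CYFIP OE and Control mice (horizontal axis) as reported and under each of 14 alternatives, with red points at an unadjusted p under 0.05. The value stays above 0 throughout, from 0.03 in line 1 alone to 0.64 in the mice of mixed name groups, and without the mouse of low connectivity it is 0.16 in all mice and 0.38 in the mixed name groups.

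The mouse of low connectivity lay outside the range of the rest in 3 of the 10 genes, on the CPM scale used here. Its *Eif4e2* level of 59.7 CPM was 349% of the median of the other 30 mice, whose highest value was 26.9 CPM. Its *Eif4a1* level of 54.5 CPM and *Eif4a2* level of 130 CPM were 42.7% and 42.0% of the median of the others. The other 7 genes lay within the range of the other mice in CPM, among them *Eif4e* at 87.4 CPM and *Eif4g1* at 137 CPM. Which genes lie outside depends on the scaling, as 1 gene held 19.13% of this mouse's counts, beside 15.39% in CYFIP OE replicate 15. It had 762 *Eif4g1* reads of 7497729 total counts. Replicate 15, the lowest mouse for *Eif4g1* at 131 CPM, had 841 of 7291154, a higher share of its total. The same mouse had the highest sum of microglial markers, 294 CPM, and one of the highest of neuronal markers, 3150 CPM. Its markers of BLA principal neurons summed to 235 CPM, the highest among CYFIP OE mice. Its choroid plexus markers summed to 4670 CPM, its oligodendrocyte markers to 1060 CPM and its striatal markers to 184 CPM, the last the lowest among CYFIP OE mice. The part of these in its levels was not tested.

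The 4E-BPs are repressors that let go of eIF4E when mTORC1 phosphorylates them, and 4E-BP2 is described as the main form in the brain. The mRNA counts showed no such excess, as *Eif4ebp1* made up 52.4 ± 14.4% of the summed counts of the 2 genes (SD, n = 31). The share ran from 18.2 to 73.6% between mice, on few reads. Whether the 3′ ends of the 2 genes were captured alike was not tested. Their proteins were not measured. *Eif4ebp1* (chromosome 8, 27260329 to 27276674, plus strand) had estimates of opposite sign in the lines, whose difference did not pass the adjusted test. In line 1 it was 1.62 to 6.90 CPM in Control mice and 3.16 to 13.5 CPM in CYFIP OE mice, of which 4 exceeded every Control mouse. In line 3 it was 3.64 to 9.58 CPM in Control mice and 2.02 to 8.86 CPM in CYFIP OE mice, of which 6 of 8 were below the Control mean. The log2 difference was 0.54 ± 0.30 in line 1 and -0.40 ± 0.29 in line 3 (SE). In line 1, CYFIP OE replicates 4 and 7, at 9.28 and 8.20 CPM, were aged 77 days, an age that no Control mouse had. Only 2 mice of line 1 were in name groups of both genotypes, so genotype there cannot be fully told apart from age and name group. The lines differed by -0.94 ± 0.42 (SE, unadjusted p = 0.0315, adjusted p = 0.574, edgeR). An unadjusted p under 0.05 for this difference was reached by 8.1% of all tested genes. None of the 10 genes reached an adjusted p under 0.05 by edgeR, where 0% of all tested genes did, nor by DESeq2. With each mouse left out in turn, the unadjusted p of *Eif4ebp1* was under 0.05 in 26 of 31 fits. It was highest, at 0.0826, without CYFIP OE replicate 2, the mouse at 13.5 CPM (edgeR).

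*Eif4ebp2* (chromosome 10, 61428491 to 61452661, minus strand) had a median of 6.06 CPM in Control mice, between 1.73 and 9.07, and of 5.57 CPM in CYFIP OE mice, between 2.42 and 7.99. The CYFIP OE mice all lay inside the Control range. The log2 difference was -0.05 ± 0.21 (SE), with a 95% interval from -0.49 to 0.38, and between the lines it was -0.21 ± 0.43 (SE, adjusted p = 0.941, edgeR).

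*Eif4g1* (chromosome 16, 20668313 to 20692884, plus strand) encodes the scaffold of eIF4F. Its level was 153 to 221 CPM in Control mice and 131 to 217 CPM in CYFIP OE mice, with medians of 180 and 175 CPM. In 5 CYFIP OE mice it was below every Control mouse. The genotypes differed by -0.08 ± 0.08 (log2, SE), with 0.06 in line 1 and -0.20 in line 3, and the difference between lines was -0.26 ± 0.16 (SE, adjusted p = 0.717, edgeR).

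The helicases eIF4A1 and eIF4A2 unwind the 5′ end of the mRNA so that the ribosome can load. *Eif4a1* (chromosome 11, 69666936 to 69672423, minus strand) was 113 to 151 CPM in Control mice and 54.5 to 164 CPM in CYFIP OE mice, with medians of 129 and 120 CPM. *Eif4a2* (chromosome 16, 23107444 to 23114136, plus strand) was 256 to 329 CPM in Control mice and 130 to 375 CPM in CYFIP OE mice, with medians of 298 and 311 CPM. CYFIP OE mice lay above and below the Control range in both genes. The log2 differences were -0.07 ± 0.09 for *Eif4a1* and -0.00 ± 0.10 for *Eif4a2* (± SE, adjusted p = 0.999 for both, edgeR). *Eif4a2* overlaps *Rfc4* on the other strand and 6 small RNA genes on its own.

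Between the lines none of the 10 genes passed an adjusted p of 0.05 by edgeR, where 0% of all tested genes did, nor by DESeq2, and none had an unadjusted p under 0.05, beside 3.31% of all tested genes. *Eif4e2* had the smallest p, with a level in line 3 of 11.5 to 59.7 CPM against 11.6 to 24.1 CPM in line 1 (log2 difference 0.28 ± 0.16, SE). Without CYFIP OE replicate 1, the mouse at 59.7 CPM, the difference was 0.14 (unadjusted p = 0.244, edgeR). *Fmr1* followed at 0.16 ± 0.11, with 14 of 16 mice of line 3 above the mean of line 1. Its difference was 0.10 without CYFIP OE replicate 4, a mouse of line 1 at 12.5 CPM, and 0.05 with age as a term or without the 4 mice aged 77 days.

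Between the sexes none of the 10 genes passed an adjusted p of 0.05 by edgeR, where 0.0631% of all tested genes did, nor by DESeq2, and *Eif4e* was the 1 gene with an unadjusted p under 0.05, beside 4.62% of all tested genes. Its level was 70.2 to 104 CPM in females, with a median of 87.6, and 66.5 to 90.4 CPM in males, with a median of 76.2. In 13 of 16 females it was above the mean of the males, and 6 females exceeded every male. The log2 difference was 0.16 ± 0.07 (SE, unadjusted p = 0.0217, adjusted p = 0.97, edgeR). The unadjusted p stayed under 0.05 in 10 of 11 alternatives, the exception being the 18 mice of mixed name groups at 0.468. *Fmr1*, which is X-linked, differed by 0.00 ± 0.11 between the sexes (log2, SE).

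Ratios within a mouse do not depend on how libraries are scaled, and 5 were compared between genotypes by permutation within line, with Benjamini-Hochberg adjustment over the 5. *Fmr1* made up 23.5 ± 3.26% of the FMRP family in Control mice (SD, n = 16) and 22.8 ± 6.04% in CYFIP OE mice (SD, n = 15). *Eif4a1* made up 30.2 ± 1.84% and 29.4 ± 3.34% of the 2 helicases. *Eif4e2* made up 17.1 ± 3.15% and 19.8 ± 6.59% of the 2 cap-binding proteins, with 40.6% in the mouse of low connectivity. The log2 ratio of the 4E-BP genes together to *Eif4e* was -2.87 ± 0.404 and -2.94 ± 0.549. The log2 ratio of *Fmr1* to the mouse gene *Cyfip1* was -0.33 ± 0.191 and -0.399 ± 0.452. In none of the 5 did the genotypes differ beyond the spread between mice, and the adjusted p was 0.758 for each (permutation).

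The spread itself was wider in CYFIP OE mice for most of the genes, a description made after the values were seen and given without a test. The coefficient of variation (CV, the SD as a percent of the mean) of *Fmr1* was 9.86% in Control mice and 25.6% in CYFIP OE mice. For *Eif4a1* it was 7.61% and 21%, and for *Eif4a2* 8.08% and 21.8%. The CV was higher in CYFIP OE mice for 7 of the 10 genes, beside 65.4% of all tested genes, which is near that share. It was over 2 times higher for 4 of the 10, *Fmr1*, *Eif4e2*, *Eif4a1* and *Eif4a2*, beside 4.09% of all tested genes. Without the mouse of low connectivity it was over 2 times higher for *Fmr1* alone, at 23.1%, and 1.13% of all tested genes. Without the mice aged 77 days it was over 2 times higher for 4 of the 10, with 20.7% for *Fmr1*, and for 5.34% of all tested genes. Without that mouse and the mice aged 77 days, it was over 2 times higher for 0 of the 10 and 1.6% of all tested genes, and *Fmr1* had 14.5% in 10 CYFIP OE mice.

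Paralogs and binding partners were compared across the 31 mice by the correlation of log2 CPM after sex, line and genotype had been removed, for 7 pairs with Benjamini-Hochberg adjustment. *Fmr1* and *Fxr2* were negatively correlated, with Pearson's r = -0.552 (adjusted p = 0.00304, permutation), while Spearman's rho of -0.475 missed the threshold (adjusted p = 0.0544, permutation). On the CPM scale used here, the mouse with the lowest *Fmr1*, CYFIP OE replicate 4 at 12.5 CPM, had the highest *Fxr2*, at 59.5 CPM. This depends on the scaling. Replicate 4 had 94 *Fmr1* reads of 8103543 total counts, and replicate 1 had 85 of 7497729, a lower share. For *Fxr2* replicate 4 had 449 reads, and Control replicate 8 had 435 of 7387798, a higher share. The correlation r was -0.603 in line 1 and -0.470 in line 3, and -0.408 without the 2 mice farthest from the median of *Fmr1*. Without the mouse of low connectivity r was -0.510 (adjusted p = 0.0195, permutation) and rho was -0.436 (adjusted p = 0.113, permutation). With the oligodendrocyte and striatal marker sums removed as well, r was -0.590 (adjusted p = 0.000945, permutation) and rho was -0.485 (adjusted p = 0.0224, permutation).

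*Eif4a1* and *Eif4a2* were positively correlated, with r = 0.770 (adjusted p = 0.00133, permutation) and rho = 0.428 (adjusted p = 0.0622, permutation). The size of r depended on 1 mouse. Without the mouse of low connectivity r was 0.367 (adjusted p = 0.111, permutation), and without the 2 mice farthest from the median of *Eif4a1* it was 0.294. Within line 1, which does not hold that mouse, r was 0.498, and within line 3 it was 0.868, or 0.355 without the mouse. With the oligodendrocyte and striatal marker sums removed as well, r over all mice was 0.789 (adjusted p = 7e-05, permutation) and rho was 0.575 (adjusted p = 0.00602, permutation). In that setting r was 0.744 in line 1, and 0.505 without the 2 mice farthest from the median of *Eif4a1*. The other 5 pairs did not pass: r was -0.273 for *Fmr1* and *Fxr1*, 0.385 for *Fxr1* and *Fxr2*, -0.205 for *Eif4e* and *Eif4ebp2*, 0.092 for *Fmr1* and *Cyfip1* and -0.234 for *Eif4e* and *Cyfip1* (adjusted p from 0.0768 to 0.625, permutation, with rho of -0.284, 0.336, -0.208, 0.061 and -0.207).

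**Figure D4:**
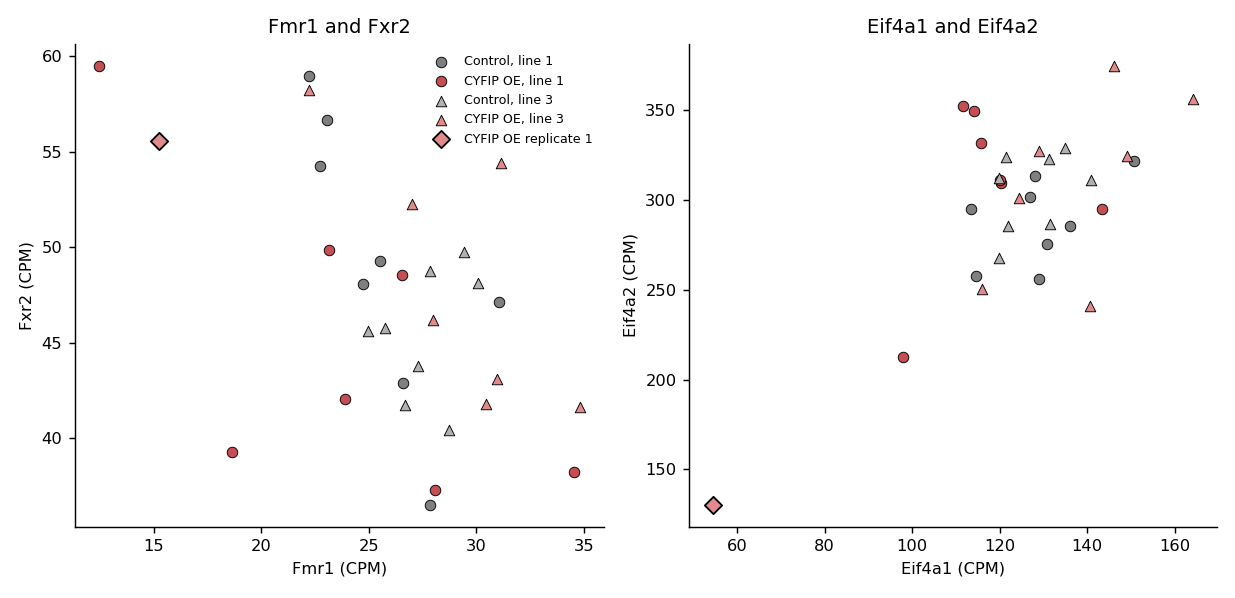
Levels of Fmr1 against Fxr2 (left) and of Eif4a1 against Eif4a2 (right) in CPM, with 1 point per mouse and CYFIP OE replicate 1 as a diamond. Fxr2 tends to be lower where Fmr1 is higher over the mice of each line, but not in every group. Among Control mice of line 3, those with Fmr1 at 30.1 and 29.4 CPM had Fxr2 at 48.1 and 49.7 CPM, above the group median of 45.7. In the right panel the diamond at 54.5 and 130 CPM lies apart from the other mice.

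The other gene with the most similar pattern was sought among 5748 genes with a mean of at least 20 CPM, over the 31 mice and after the same terms had been removed. The closest were *Tm9sf2* for *Fmr1* (r = 0.841) and *Cpeb3* for *Fxr1* (r = 0.756). *Eif4e* was closest to *H2afj* (r = 0.723), *Eif4ebp1* to *Noct* (r = 0.713), *Eif4ebp2* to *Tenm1* (r = 0.634) and *Eif4g1* to *Slc3a2* (r = 0.767). *Eif4e2* was closest to *Usp50* (r = 0.829), *Eif4a1* to *Ndufb4c* (r = 0.882) and *Eif4a2* to *Itm2c* (r = 0.947). Without the mouse of low connectivity the closest gene was another one for 5 genes, namely *Snx17* for *Eif4e2* (r = 0.704), *Golgb1* for *Eif4ebp2* (r = 0.637), *Crim1* for *Eif4g1* (r = 0.796), *Mrps18c* for *Eif4a1* (r = 0.728) and *Pafah1b1* for *Eif4a2* (r = 0.895). These are descriptions, and all levels come from the same libraries.

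Other genes of the pathway were taken from 3 lists, and all of their genes were tested. Of 20 other cap-binding and eIF4F genes, 6 had a genotype difference above 0 and 14 below, with a median log2 difference of -0.04. Of 22 genes of FMRP partners 9 were above 0 and 13 below, with a median of -0.01, and of 20 genes whose mRNAs FMRP is known to bind 14 were above 0 and 6 below, with a median of 0.07. The median of all tested genes was -0.01. None of these genes had an adjusted p under 0.05 or an unadjusted p under 0.05 in this comparison (edgeR). The smallest p in each direction belonged to *Paip1* (0.14) and *Eif4g3* (-0.18) in the first list, to *Purb* (0.08) and *Hnrnpa2b1* (-0.23) in the second, and to *Map2* (0.16) and *Arc* (-0.25) in the third (log2 differences). *Paip1* stimulates translation through the poly(A)-binding protein, *Eif4g3* is a paralog of *Eif4g1*, and *Map2* and *Arc* encode a dendritic microtubule protein and an activity-induced synaptic protein.

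The difference between lines in the genotype effect was above 0 at an unadjusted p under 0.05 for 6 of the 20 mRNAs bound by FMRP, beside 8.1% of all tested genes in either direction, and for none at an adjusted p under 0.05 (edgeR). The 6 were *Rgs4* (1.33 ± 0.52), *Shank3* (0.90 ± 0.43), *Kcnd2* (0.69 ± 0.28), *Dlgap3* (0.68 ± 0.30), *Agap2* (0.60 ± 0.27) and *Grm5* (0.40 ± 0.17), as log2 ± SE. *Rgs4*, a regulator of G-protein signalling, was 129 to 792 CPM in Control mice of line 3 and 136 to 1040 CPM in their CYFIP OE mice, with medians of 348 and 706 CPM, so that the groups overlapped. All 6 had a fitted genotype difference below 0 in line 1 (-0.49 to -0.14) and above 0 in line 3 (0.15 to 0.84). In line 1 the medians of *Rgs4* were 570 CPM in Control mice and 471 CPM in CYFIP OE mice. In line 3 the striatal markers summed to 169 to 3430 CPM in Control mice, with a median of 1310, and to 184 to 3850 CPM in CYFIP OE mice, with a median of 2160. In line 1 they summed to 1620 to 2630 CPM in Control mice, with a median of 2110, and to 323 to 2870 CPM in CYFIP OE mice, with a median of 1460. The 5 striatal markers differed between lines by 1.43 to 1.60 in the genotype effect (log2, unadjusted p from 0.0175 to 0.0334, edgeR), with -0.93 to -0.73 in line 1 and 0.67 to 0.78 in line 3. Their part in the result was not tested. In the other lists the unadjusted p was under 0.05 for the translation repressors *Pdcd4* (-0.61 ± 0.26) and *Larp1* (-0.41 ± 0.15) and for *Ybx1* (0.59 ± 0.20), an mRNA-binding protein, as log2 ± SE (adjusted p from 0.535 to 0.57, edgeR).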

How the data were processed

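RNA of the pooled left and right BLA of each mouse was measured by QuantSeq 3′ sequencing. STAR (alignment to GRCm38) and Salmon (quantification) were used by the authors, who deposited for each mouse expected counts per gene, estimates that need not be whole and are not normalized. Reads that match several transcripts are divided by the estimate, so that levels of close paralogs could trade reads. Over the last 300 bases of the transcripts only *Eif4e* and *Eif4a2* had another gene at least 95% identical over at least 100 bases. This does not clear the other genes of divided reads. The count was whole in 3 of 31 mice for *Fmr1* and for *Eif4e2*, 6 for *Fxr2*, 10 for *Eif4a1*, 15 for *Fxr1* and 0 for *Eif4ebp1*. It was whole in 29 mice for *Eif4g1* and in 31 for *Eif4ebp2*. The reason was not tested. The study's own covariates from alignment statistics were not used here.

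Counts were rounded to whole numbers. Genes that reached 10 reads in no fewer than 20% of mice were tested with edgeR 4.0.16 in R 4.3.3 (TMM, quasi-likelihood F test, two-sided) with sex, line and genotype as terms, and with the 4 genotype-by-line groups and sex for the difference between lines. P-values were adjusted by Benjamini-Hochberg over all 17428 genes. CPM values are TMM-scaled. Permutation tests were two-sided with 100000 resamples. DESeq2 1.42.0, sva 3.50.0, other filters, covariates and subsets of mice served as alternatives. The tests were run on simulated data first. Groups came from the labels. The genes described are the 10 given, with for each the 1 most similar gene (that of *Fxr2* is not reported here), and of each further list the gene with the smallest p in each direction or those under an unadjusted p of 0.005. Genes of those lists with an unadjusted p under 0.05 between lines were named after their values were seen. The members and lists were chosen with earlier results of these data known. Mice are separate animals, and the spread between them sets the p-values.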

Additional observations from a re-analysis of the deposited data

Results flagged for a closer look

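Groups of 7 or 8 mice of the same genotype and line were searched for a mouse that stood apart, by the gap to its nearest neighbour relative to the range of the group (Dixon's test at 95%). Of 40 groups, 5 held such a mouse. The nominal rate of the test, about 1 in 20, is for independent groups, while these groups hold the same mice for each gene. The share over all tested genes was not counted, so no excess is read from this count. *Eif4e2* was at 59.7 CPM in CYFIP OE replicate 1 of line 3, with the next mouse at 26.9 CPM, and *Eif4a1* was at 54.5 CPM in the same mouse, with the next at 116 CPM. In CYFIP OE replicate 4, a female of line 1 aged 77 days, *Eif4e2* was at 24.1 CPM, with the next at 17.5 CPM, and *Eif4a2* was at 213 CPM, with the next at 295 CPM. *Eif4ebp1* was at 1.62 CPM in Control replicate 5 of line 1, on 14 reads, with the next at 4.54 CPM.

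The genotype difference of *Eif4ebp1* differed between lines by -0.94 ± 0.42 on the log2 scale (SE, unadjusted p = 0.0315, adjusted p = 0.574, edgeR). It did not pass the adjustment over all genes.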

How the results depend on the processing

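The count of 0 called genes held in every alternative for genotype, line, sex and the difference between lines, leaving out each mouse included. The share of all tested genes called in these alternatives is not given here. In the order of levels, 8 of 9 neighbours stayed apart in both of its alternatives. *Eif4e2* kept its sign by genotype in all 14 alternatives (0.03 to 0.64), of which that in the mixed name groups without the mouse of low connectivity (0.38) was chosen after seeing the data, and *Eif4ebp1* its sign in the difference between lines in all 10 (-1.12 to -0.68). The pairs of correlated genes went from 2 to 1 without the mouse of low connectivity, where *Eif4a1* and *Eif4a2* had r = 0.367, and stayed at 2 with the marker sums removed. The *Fmr1* share of its family differed by -0.71 percentage points between genotypes, but by 1.34 without the mice aged 77 days and 0.032 without the mouse of low connectivity. Without the mice aged 77 days the log2 ratio of the 4E-BP genes to *Eif4e* differed by 0.0742 and that of *Fmr1* to *Cyfip1* by 0.0103, against -0.0546 and -0.0779 in all mice. The cause was not tested.

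Differences near 0 changed sign with the setting, none with an adjusted p under 0.05. For genotype (log2) this was so with age as a term (*Fmr1* 0.04, *Eif4ebp2* 0.01), without the mice aged 77 days (*Fmr1* 0.06, *Fxr1* -0.01, *Fxr2* 0.01, *Eif4a2* 0.01), without the mouse of low connectivity (*Fmr1* 0.00, *Eif4a2* 0.06), with 5 surrogate variables (*Fxr1* -0.03, *Eif4ebp2* 0.10, *Eif4a2* 0.03), in the mixed name groups (*Fxr1* -0.08, *Fxr2* 0.09, *Eif4ebp1* -0.44), in these without the mouse of low connectivity (*Fmr1* 0.07, *Fxr1* -0.17, *Fxr2* 0.06, *Eif4ebp1* -0.41, *Eif4a1* 0.09, *Eif4a2* 0.14), in line 1 alone (*Fxr1* -0.03, *Eif4ebp2* 0.05, *Eif4g1* 0.06, *Eif4a2* 0.10), in line 3 alone (*Fxr2* 0.11, *Eif4ebp1* -0.41), with library size as a term (*Fxr2* 0.01, *Eif4ebp1* -0.03) and with oligodendrocyte and striatal marker sums as terms (*Eif4a2* 0.02). For line it was so without a filter (*Fxr2* -0.00, *Eif4e* -0.00), with age (*Fxr2* -0.00, *Eif4e* -0.02, *Eif4a1* -0.02), without the mice aged 77 days (*Fxr2* -0.01, *Eif4e* -0.02, *Eif4a1* -0.01), without the mouse of low connectivity (*Fxr2* -0.02, *Eif4e* -0.01, *Eif4a2* 0.04) and with surrogate variables (*Eif4e* -0.00, *Eif4ebp1* 0.01, *Eif4a2* 0.01). For sex it was so with at least 10 reads in every mouse (*Fmr1* -0.01, *Fxr2* -0.00), surrogate variables (*Fmr1* -0.08, *Eif4e2* 0.01), marker sums (*Fmr1* -0.02), without the mouse of low connectivity (*Fmr1* -0.04, *Eif4e2* 0.12), without the mice aged 77 days (*Fxr2* -0.01) and in the mixed name groups (*Fxr2* -0.01, *Eif4e2* 0.17, *Eif4ebp2* -0.37). For the difference between lines it was so with age (*Fmr1* -0.10), marker sums (*Fmr1* -0.04, *Eif4a1* -0.07), without the mice aged 77 days (*Fmr1* -0.16) and with surrogate variables (*Fxr1* -0.13, *Eif4ebp2* 0.04).

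Leaving out each mouse in turn also changed signs. For genotype the range was -0.10 to 0.01 for *Fmr1*, -0.00 to 0.08 for *Fxr1*, -0.03 to 0.02 for *Fxr2*, -0.03 to 0.14 for *Eif4ebp1*, -0.12 to 0.02 for *Eif4ebp2* and -0.03 to 0.06 for *Eif4a2*. For line it was -0.02 to 0.03 for *Fxr2*, -0.02 to 0.02 for *Eif4e*, -0.00 to 0.14 for *Eif4ebp2* and -0.05 to 0.04 for *Eif4a2*. For sex it was -0.04 to 0.06 for *Fmr1*, -0.01 to 0.05 for *Fxr2* and -0.10 to 0.12 for *Eif4e2*, and for the difference between lines -0.02 to 0.22 for *Fmr1* and -0.03 to 0.16 for *Fxr1*. The labels give no replicate numbers that tie mice across groups, and the fit with the name group as a block, in the 18 mice of groups that hold both genotypes, called 0 of the 10 genes. Depth limits *Eif4ebp1* and *Eif4ebp2* most, with as few as 13 and 14 reads in a mouse.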
